A study of Mus musculus with 6 samples.

Results

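The 10 genes described here encode transcription factors and a cofactor of haematopoietic stem cells: Fli1, Erg, Gata2, Runx1, Tal1, Lyl1 and Lmo2, which together are called the heptad, with Meis1, Mecom and Hlf. They were taken by symbol, but the list was chosen with earlier results of these data known. Each matched 1 of the 48395 symbols in the count tables. All 10 passed the filter on low counts, as did 16739 symbols in all. RNA was sequenced from LSK cells, bone marrow cells that lack lineage markers and carry Sca-1 and c-Kit, a fraction that holds stem cells and early progenitors. The marrow donors were Mx1Cre; Jak2V617F/+ mice primed with 5-fluorouracil, so both groups carried the activating V617F allele of Jak2 on 1 chromosome, with the Mx1 promoter driving Cre. Marrow was infected with a lentivirus that carried either the empty vector or Hmga2, and 1000000 cells were given to each lethally irradiated C57BL/6 recipient (2 doses of 550 cGy). LSK cells were sorted 32 weeks after transplantation, with 3 libraries labelled vector and 3 labelled Hmga2. The labels call them biological replicates without saying whether each was 1 recipient, so p-values measure the spread between these libraries. The labels name no marker of transduction in the sort.

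The heptad factors bind DNA together at many enhancers of blood stem and progenitor cells, including enhancers of their own genes, and in this way keep one another expressed. FLI1 and ERG are ETS-family proteins, GATA2 a zinc-finger protein, RUNX1 the DNA-binding subunit of core-binding factor, TAL1 and LYL1 basic helix-loop-helix proteins that bind E-boxes with E proteins, and LMO2 a LIM-domain bridge that binds no DNA itself. MEIS1 is a homeodomain protein that works with HOX proteins, MECOM (also called EVI1) a zinc-finger protein, and HLF a PAR bZIP protein. The last 3 are known as factors most abundant in the immature end of the stem cell hierarchy.

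Total counts ran from 24818011 to 35471806 per library, and 3 reads corresponded to 0.0846 to 0.121 CPM (counts of a gene scaled to the library's size), a limit from counting error alone. Hmga2 itself, the gene the labels name, was at 5.96, 5.04 and 7.03 CPM in vector replicates 1 to 3 and at 2.63, 6.63 and 5.91 CPM in labelled Hmga2 replicates 1 to 3. The groups overlapped, and the log2 fold change was -0.25 (standard error 0.35; adjusted p = 0.934, edgeR), so directions below are those of the libraries labelled Hmga2 and not of an Hmga2 effect. No source used here says whether reads of the lentiviral Hmga2 were counted for the gene. On the opposite strand, 1700006J14Rik shares 140 exon bases with Hmga2. It was at 6.7 to 32.9 CPM, above Hmga2 in each library. The strand setting of the counts is not known, so reads of the 2 genes could be mixed. Kit, a gene of the sort, was at 354, 296 and 248 CPM in vector and at 375, 372 and 345 CPM in labelled Hmga2, and Ly6a, which encodes Sca-1, lay between 19.3 and 59.1 CPM. Libraries also differed in ways the labels do not give. Summed Y-linked genes were at 192 and 127 CPM in labelled Hmga2 replicates 1 and 3 and at most 21.5 CPM in the other 4 libraries. Summed B and plasma cell markers ranged from 506 to 10817 CPM in vector and from 409 to 3392 CPM in labelled Hmga2. The part of either difference in the results below was not tested beyond fits with a term for each, in which 0 of the 10 genes passed the threshold, as without them.

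Within LSK cells the 10 genes spanned about 2 orders of magnitude once read density was divided by length. On the scale of CPM per kilobase of merged exons, averaged over the 6 libraries, Lmo2 was highest at 236 ± 18.6 and Lyl1 followed at 103 ± 8.86 (SD, n = 6). Gata2 was at 58.8 ± 7.32 and Tal1 at 46.9 ± 5.11. Erg was at 35 ± 5.31 and its relative Fli1 at 22.5 ± 3.14. These 6 made up the upper end, with levels above those of 80.8% to 98.4% of genes with a length. Meis1 at 12.5 ± 2.81, Hlf at 10.4 ± 3.2 and Runx1 at 8.86 ± 0.986 formed a middle group, and Mecom was lowest at 1.81 ± 0.881, above 30.2% of genes. The ranges of neighbours in this order overlapped for Gata2 and Tal1, for Erg and Fli1, for Meis1 and Hlf, and for Hlf and Runx1; the others were apart. Erg was nevertheless above Fli1 within each of the 6 libraries, while Hlf was above Runx1 in only 3. Levels depend on the length used. With the longest transcript in place of all exons, Mecom stayed lowest but was at 3.96 CPM per kilobase, above 38.8% of genes, and Gata2 was at 88.9. The place of Runx1 moved as well: divided by its longest transcript (5861 bases) in place of all its exons (12025 bases), it was at 18.2 CPM per kilobase, seventh of the 10, above Meis1 at 17.5 and Hlf at 12.3.

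**Figure D1:**
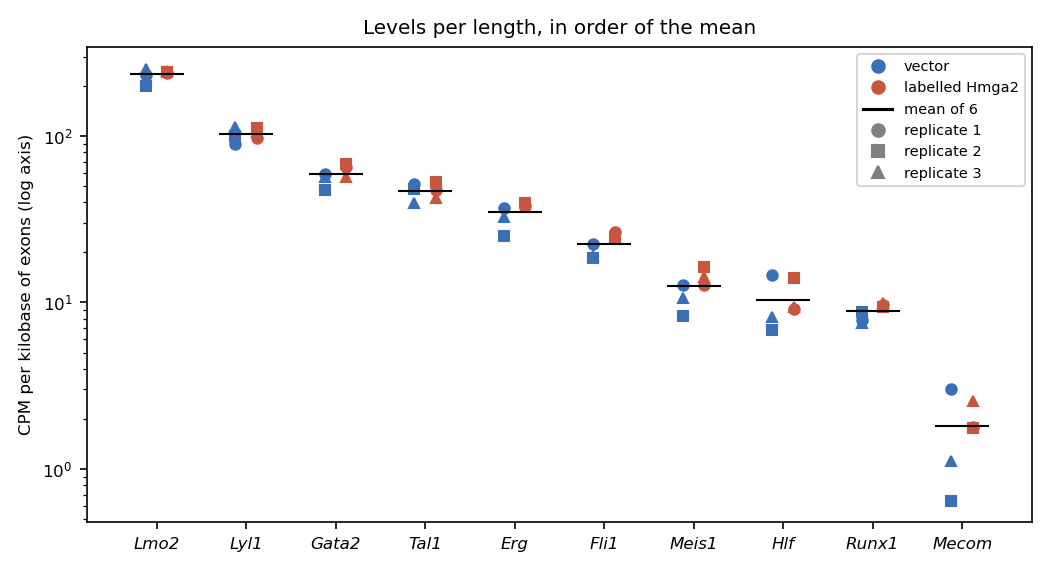
Level of each gene in each library, as CPM per kilobase of merged exons on a log axis, ordered by the mean of 6 libraries (black line), with vector in blue and labelled Hmga2 in red. Lmo2 is highest at a mean of 236 and Mecom lowest at 1.81, and Mecom has the widest scatter.

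Between the groups, all 10 genes had a fold change on the side of labelled Hmga2, but the sizes were small and 0 of the 10 passed the threshold. The median log2 fold change was 0.24 over the 10 genes and 0.22 over the 7 heptad genes, beside 0.00 over all genes tested, of which 50.4% were positive. With edgeR's quasi-likelihood test, called genes made up 0% of all genes tested (0 of 16739, with 935 at an unadjusted p under 0.05). DESeq2 called 71 genes, 0.424% of those tested, and none of the 10. An unadjusted p under 0.05 was reached by Fli1, Runx1 and Meis1, and 2.23% of all genes reached it with a higher value in labelled Hmga2. Fli1, Erg, Runx1 and Meis1 were higher in every library labelled Hmga2 than in any vector library, as were 5.28% of all genes. The count of 4 rests on narrow gaps for 2 of them and became 3 when libraries were scaled by their totals alone, because Meis1 then overlapped; 6.53% of genes were without overlap under that scaling. It became 6 without vector replicate 1, through Mecom and Hlf, but the share of all genes then rose to 14.9%. These are bulk libraries, so more cells of a type and more RNA per cell cannot be told apart.

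**Figure D2:**
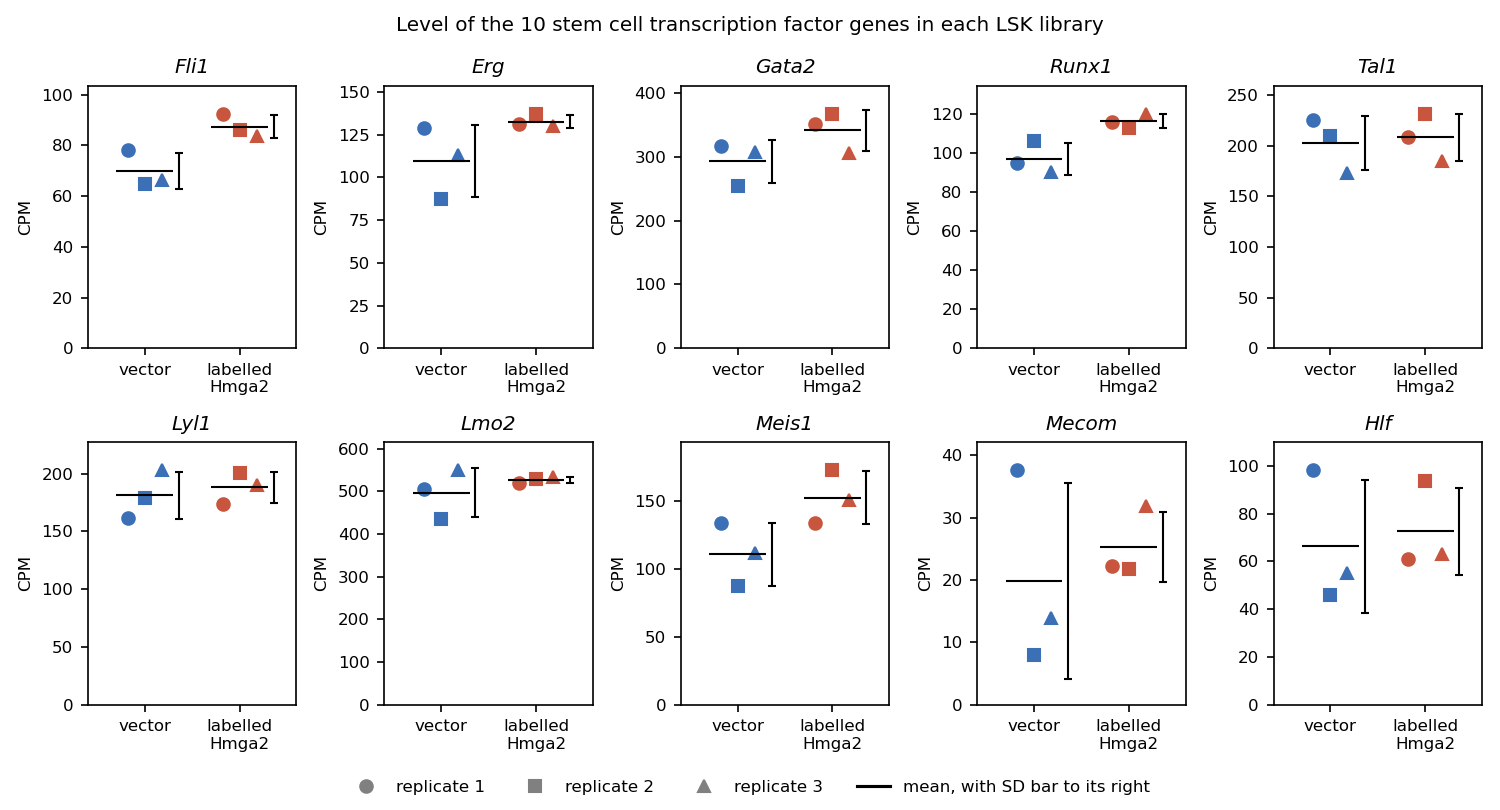
CPM of each gene in each library, with vector in blue, labelled Hmga2 in red, 1 marker shape per replicate number, the group mean as a line and the SD (n = 3) as a bar. Fli1, Erg, Runx1 and Meis1 show no overlap between groups, and for Mecom and Hlf vector replicate 1 is the highest library.

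The ETS-family genes had both groups apart. Fli1 (chromosome 9, 32422204 to 32542861, minus strand, mm10) was at 78.2, 64.9 and 66.5 CPM in vector replicates 1, 2 and 3 and at 92.3, 86 and 83.5 CPM in labelled Hmga2 replicates 1, 2 and 3. The lowest library labelled Hmga2 was 5.29 CPM above the highest vector library. The group means were 69.9 ± 7.29 and 87.3 ± 4.52 CPM (SD, n = 3 each). The log2 fold change was 0.32 (standard error, SE, 0.10, 95% interval 0.09 to 0.55; adjusted p = 0.855, edgeR; adjusted p = 0.371, DESeq2). An exact two-sided permutation test gave p = 0.1, which is the smallest p that 3 against 3 can give. Erg (chromosome 16, 95359169 to 95586593, minus strand) was at 129, 87.2 and 113 CPM in vector and at 131, 137 and 130 CPM in labelled Hmga2. Here the libraries labelled Hmga2 lay close together, and vector replicate 1 came within 1.55 CPM of them. The log2 fold change of Erg was 0.27 (SE 0.14, 95% interval -0.05 to 0.60; adjusted p = 0.855, edgeR). Vector replicate 2 carried much of it: without that library the log2 fold change was 0.13.

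Promoter sequence is shown for members whose groups did not overlap, and for Tal1 as one whose groups did, since heptad factors are known to bind near these genes. RefSeq promoter windows (GRCm38.p6, the assembly of mm10) of 300 bases, from 250 before to 50 after a start site, were found for 8 of the 10 genes, 14 windows in all, and Fli1 and Lmo2 were not matched. Both strands were searched for 6 short words. The ETS motif was written GGAAGT, the GATA motif was written AGATAA, the RUNX motif was written TGTGGT and the MEIS motif was written TGACAG. An E-box was counted where the window held CAGCTG and equally where it instead held CATCTG. No match overlapped another in the windows printed. Any of these letters occurred in 7 of the 14 windows and in 67.3% of all 32851 windows. The deposited counts are per gene, so which start site was used is not known. In Erg the most 3′ of 3 windows held 2 MEIS matches and a GATA match, and its 250 bases before the start site (chr16:95459349-95459598, minus strand) read as follows, 5′ to 3′ with matches in capitals.
Erg: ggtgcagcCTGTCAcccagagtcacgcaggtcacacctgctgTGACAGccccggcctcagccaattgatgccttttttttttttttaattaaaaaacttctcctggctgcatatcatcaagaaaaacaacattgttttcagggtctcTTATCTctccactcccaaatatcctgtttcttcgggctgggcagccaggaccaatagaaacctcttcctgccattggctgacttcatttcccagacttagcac
The MEIS letters began 242 and 208 bases before the start site, and the GATA letters began 103 bases before it. MEIS letters were in 2 of the 14 windows and in 19.2% of all windows, and GATA letters in 2 and in 11.2%. The other Erg windows held none of the letters searched.

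Runx1 and Gata2, the genes of a core-binding factor subunit and of the stem cell GATA factor, were higher on average in labelled Hmga2, without passing the threshold. Runx1 (chromosome 16, 92601466 to 92826149, minus strand) was at 94.8, 106 and 90.3 CPM in vector and at 116, 113 and 120 CPM in labelled Hmga2. The groups were 7.44 CPM apart, the widest gap among the 10 genes in CPM. Its log2 fold change was 0.26 (SE 0.08, 95% interval 0.07 to 0.45; adjusted p = 0.855, edgeR; adjusted p = 0.382, DESeq2). Runx1 was also the steadiest member: its SD within groups was 0.09 on the log2 scale, and 15.1% of genes with at least 5 CPM had a lower one. Unlike most of the others it was not lowest in vector replicate 2 but in vector replicate 3. Gata2 (chromosome 6, 88193891 to 88207032, plus strand) was at 317, 255 and 307 CPM in vector and at 352, 367 and 306 CPM in labelled Hmga2. Labelled Hmga2 replicate 3 fell among the vector libraries, so the groups overlapped. The log2 fold change of Gata2 was 0.22 (SE 0.11, 95% interval -0.05 to 0.49; adjusted p = 0.855, edgeR), and the exact two-sided permutation test gave p = 0.3. Without vector replicate 2 its log2 fold change was 0.13.

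RUNX letters occurred in 2 of the 14 windows, those of Runx1 itself and of Meis1, and in 16.8% of all windows. The window at the upstream start site of Runx1 held a pair of RUNX matches, both on the strand opposite to the gene, 28 and 36 bases after the start site. The last 30 bases of that window (chr16:92826025-92826054, minus strand) carry them and are printed with the matches in capitals.
Runx1: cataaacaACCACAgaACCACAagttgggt
The other Runx1 window, at its downstream start site, held none of the letters searched. The 2 Gata2 windows held 1 match in all, an E-box beginning 17 bases after the downstream start site.

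Tal1, Lyl1 and Lmo2, whose proteins take part in complexes on E-box and GATA sites, showed fold changes near 0. Tal1 (chromosome 4, 115056426 to 115071755, plus strand) was at 225, 209 and 173 CPM in vector and at 208, 231 and 185 CPM in labelled Hmga2. Lyl1, its close relative (chromosome 8, 84701457 to 84704715, plus strand), was at 162, 179 and 203 CPM in vector and at 174, 201 and 190 CPM in labelled Hmga2. Lmo2 (chromosome 2, 103957986 to 103981878, plus strand), the bridging subunit, was at 505, 435 and 549 CPM in vector and at 519, 528 and 533 CPM in labelled Hmga2. All 3 had overlapping groups, and for Lmo2 the whole labelled group lay inside the range of the vector group. The log2 fold changes were 0.04 for Tal1 (SE 0.12, interval -0.25 to 0.33), 0.06 for Lyl1 (SE 0.10, interval -0.18 to 0.30) and 0.09 for Lmo2 (SE 0.10, interval -0.15 to 0.33). Their adjusted p-values were 0.974, 0.949 and 0.916 (edgeR). The upper bounds correspond to folds of 1.26 for Tal1, 1.23 for Lyl1 and 1.25 for Lmo2, and larger rises lie outside the 95% intervals. The sign of the Tal1 and Lyl1 values turned when single libraries were left out, and Lmo2 ran from 0.00 without vector replicate 2 to 0.17 without vector replicate 3.

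The upstream window of Tal1 held a GATA match 205 bases before the start site and an E-box 10 bases after it, the kinds of letters that GATA2 and TAL1 bind. Its 250 bases before the start site (chr4:115056176-115056425, plus strand) are printed with the GATA match, read on the opposite strand, in capitals.
Tal1: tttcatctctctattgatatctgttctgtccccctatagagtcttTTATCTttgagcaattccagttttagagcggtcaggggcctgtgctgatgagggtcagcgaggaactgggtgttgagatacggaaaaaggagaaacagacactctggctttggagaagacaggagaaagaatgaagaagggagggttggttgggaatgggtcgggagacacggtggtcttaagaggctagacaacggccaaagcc
E-box letters were in 30.6% of all windows and in 3 of the 14. The downstream window of Tal1 and the single Lyl1 window held none of the letters searched. The Lyl1 annotation shares 4 exon bases with Nfix on the opposite strand, which was at up to 113 CPM, and no source used here gives the strand setting of the counts.

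Meis1 had a 1.37-fold higher mean in labelled Hmga2, without passing the threshold. It (chromosome 11, 18879817 to 19018985, minus strand) was at 134, 87.5 and 112 CPM in vector and at 134, 173 and 151 CPM in labelled Hmga2. Labelled Hmga2 replicate 2 was highest and vector replicate 2 lowest, and the groups were separated by 0.11 CPM, between vector replicate 1 and labelled Hmga2 replicate 1. The means were 111 ± 23.3 and 153 ± 19.3 CPM (SD, n = 3 each). The log2 fold change was 0.45 (SE 0.17, 95% interval 0.06 to 0.85; adjusted p = 0.855, edgeR; adjusted p = 0.448, DESeq2). Leaving out single libraries gave values from 0.31, without vector replicate 2, to 0.61, without vector replicate 1. Reads of 2 small overlapping genes could be mixed with those of Meis1: Gm37818 on the same strand shares 1029 exon bases and was at up to 2.62 CPM, and Gm16140 on the opposite strand shares 896 and was at up to 5.72 CPM. The Meis1 window was the only 1 of the 14 with ETS letters, which 23.8% of all windows hold, and it also held RUNX letters. Its 250 bases before the start site (chr11:19018970-19019219, minus strand) show the RUNX match at 166 bases and the ETS match, read on the opposite strand, at 13 bases before the start site in capitals.
Meis1: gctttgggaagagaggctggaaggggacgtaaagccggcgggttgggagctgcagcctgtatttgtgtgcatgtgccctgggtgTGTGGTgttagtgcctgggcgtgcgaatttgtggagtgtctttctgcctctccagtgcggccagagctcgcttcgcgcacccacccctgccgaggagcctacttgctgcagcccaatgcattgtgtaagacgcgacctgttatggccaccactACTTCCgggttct
The windows of Mecom held an E-box and a MEIS match, 1 in each of 2 windows, and the Hlf window held none of the letters searched.

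Mecom and Hlf varied most between libraries of one group. Mecom (chromosome 3, 29951296 to 30548008, minus strand) was at 37.6, 8 and 13.9 CPM in vector and at 22.2, 21.8 and 31.8 CPM in labelled Hmga2. Vector replicate 1 was 4.7 times vector replicate 2, and the labelled libraries lay between them. The log2 fold change was 0.35 (SE 0.52, 95% interval -0.87 to 1.57; 0.545-fold to 2.98-fold; adjusted p = 0.936, edgeR). Single libraries decide it: leaving out vector replicate 1 gave 1.21, leaving out vector replicate 2 gave -0.03, and leaving out replicate 3 of either group gave 0.15. Between 208 and 1192 reads per library lay behind Mecom. Hlf (chromosome 11, 90336536 to 90390895, minus strand) was at 98.1, 45.7 and 55 CPM in vector and at 61, 93.5 and 63 CPM in labelled Hmga2. Vector replicate 1 and labelled Hmga2 replicate 2 stood above the other 4 libraries, so the groups overlapped. Its log2 fold change was 0.13 (SE 0.30, 95% interval -0.59 to 0.84; adjusted p = 0.962, edgeR), and it ran from -0.10 without labelled Hmga2 replicate 2 to 0.52 without vector replicate 1. The within-group SD on the log2 scale was 0.83 for Mecom and 0.47 for Hlf, beside a median of 0.15 over 11633 genes of at least 5 CPM. Of these genes 97.7% varied less than Mecom and 94% less than Hlf. Meis1 followed at 0.25 and Erg at 0.20, and the other heptad genes lay between 0.09 and 0.18.

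**Figure D3:**
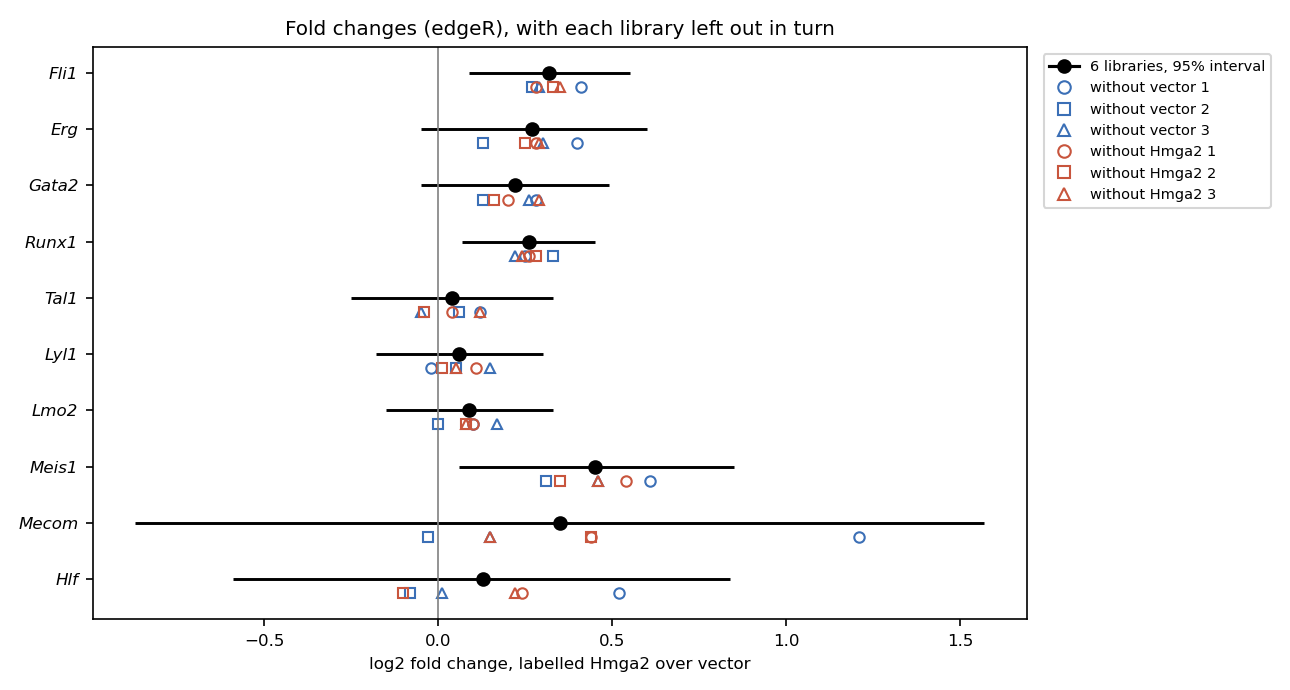
Log2 fold change of each gene, labelled Hmga2 over vector, from edgeR (black, with its 95% interval from 6 libraries) and again with each library left out (open symbols). Intervals of Fli1, Runx1 and Meis1 lie above 0 without adjustment for the number of genes, and Mecom ranges from -0.03 to 1.21.

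The members did not vary independently of the library. Vector replicate 2 was the lowest of the 6 libraries for 7 of the 10 genes (Fli1, Erg, Gata2, Lmo2, Meis1, Mecom and Hlf), and vector replicate 1 was the highest vector library for 7 of the 10. Over genes of at least 5 CPM, vector replicate 2 was the lowest of the 6 libraries for 13.8%, and vector replicate 1 was the highest vector library for 31.3%. With each gene centred on its mean log2 CPM over the 6 libraries, the median of the 10 genes was 0.03, -0.29 and -0.21 in vector and 0.09, 0.16 and 0.08 in labelled Hmga2. Without vector replicate 2 the median log2 fold change of the 10 genes was 0.10, and 8 of the 10 stayed positive.

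Marker genes of stem cells and of more mature cells also differed between libraries, and not all in the same direction. Stem cell markers (9 of 9 measured, including Procr, Slamf1 and Tek) had centred medians of 0.76, -0.82 and -0.41 in vector and of -0.19, 0.28 and 0.28 in labelled Hmga2. Vector replicate 1 was the highest vector library for 8 of the 9 and vector replicate 2 the lowest for 6, the order seen in Mecom and Hlf. Summed, this list ran from 743 to 888 CPM in vector and from 945 to 981 CPM in labelled Hmga2. Most of that sum, however, was Cd34, at 526, 626 and 755 CPM in vector and at 795, 686 and 706 CPM in labelled Hmga2. Cd34 went against the rest of the list in vector: it was lowest in replicate 1, where the other 8 were highest. The other 8 summed to 335, 117 and 133 CPM in vector and to 162, 259 and 275 CPM in labelled Hmga2, which overlap. Of all genes 5.28% were higher without overlap and of the 9 markers 0, a list too short to tell these shares apart. Of the 9, 8 had positive and 1 a negative fold change, with a median log2 fold change of 0.23, near that of the 10 members. Multipotent and lymphoid-primed progenitor markers were positive for 5 of 5, with a median of 0.38, but Cd48 was at 0.00. Dntt was at 91.4 CPM in labelled Hmga2 replicate 3 and at 12.1 to 28.9 CPM in the other libraries. Il7r was at 4.6 CPM in that library and at 0.769 to 1.45 CPM in the others. Sums of the 5 markers overlapped, from 347 to 625 CPM in vector and from 470 to 716 CPM in labelled Hmga2. Granulocyte progenitor markers (5 of 5, including Elane and Mpo) were each highest in vector replicate 2, and their sum ran from 4366 to 9291 CPM in vector and from 2976 to 4854 CPM in labelled Hmga2. All 5 had negative fold changes. Erythroid markers were highest in vector replicate 2 for 6 of 7, with sums from 759 to 1192 CPM and from 464 to 714 CPM. Fold changes were negative for 6 of these 7 and positive for 1, Hbb-bs (log2 fold change 0.18). Hbb-bs made up 469 of the 714 CPM in labelled Hmga2 replicate 3. DESeq2 called Klf1, Rhd and Blvrb of the erythroid list and Ms4a3 of the granulocyte list, all lower in labelled Hmga2. It called 0.424% of all genes tested, and edgeR called 0 genes in either list. Other sources of Fli1, Erg, Tal1 and Lyl1 transcripts were also measured. Endothelial markers summed to 85.4 to 109 CPM in vector and 106 to 123 CPM in labelled Hmga2, most of it Pecam1. Of the 7, 5 were tested, 4 positive and 1 negative with a median log2 fold change of 0.29. Emcn reached 7.45 CPM, Plvap 6.95 CPM and Kdr 4.28 CPM, while Cdh5 was at 0.536 CPM or less and Cldn5 at 0.466 CPM or less. Megakaryocyte markers ran from 478 to 805 and from 575 to 792 CPM, and mast cell and basophil markers from 256 to 328 and from 156 to 444 CPM. All 5 megakaryocyte genes tested were positive, with a median log2 fold change of 0.21. The mast cell and basophil genes divided into 3 positive and 3 negative. Glial markers summed to 119 to 376 CPM in vector and 111 to 144 CPM in labelled Hmga2; 4 of 5 were tested and all 4 were lower in labelled Hmga2, with a median log2 fold change of -1.88. Gfap and Mobp were lower without overlap, as were 985 of all 16739 genes tested. Gfap was called by DESeq2 (adjusted p = 7.49e-06) and not by edgeR (adjusted p = 0.855). Mog was at or near 0. Cd3e and Cd3g, defining genes of T cells, were at or near 0 in every library. Cd4, the other gene of the T cell list, was at 0.0769 to 1.32 CPM, highest in vector replicate 1. The part of these cell types in the results for the 10 genes was not tested.

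**Figure D4:**
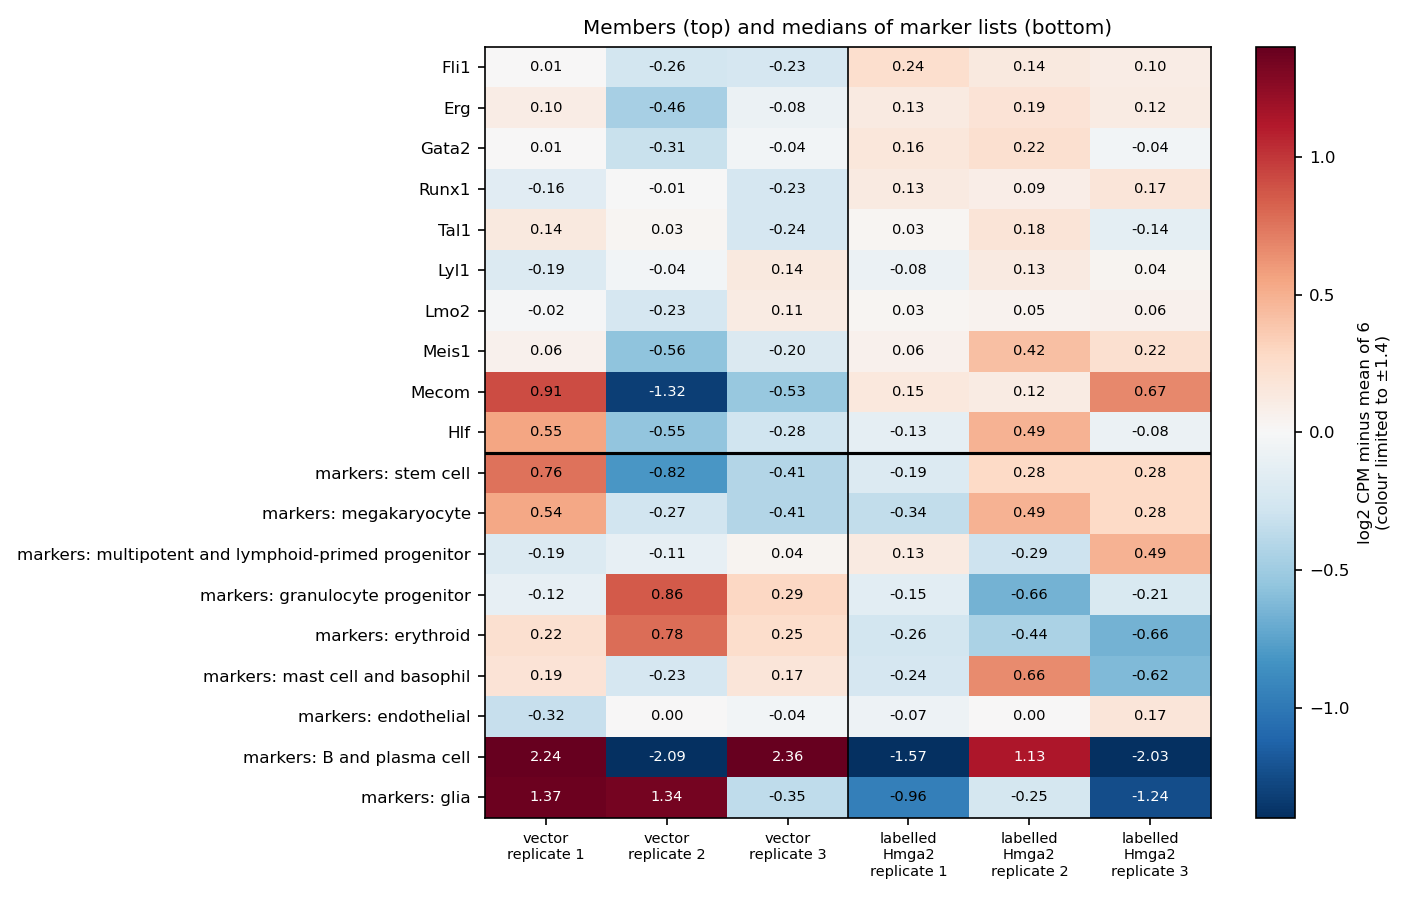
Log2 CPM minus the mean over 6 libraries, for each of the 10 genes (upper block) and as the median of each marker list (lower block), with libraries in columns, red above and blue below the mean. Vector replicate 2 is low for Mecom (-1.32) and stem cell markers (-0.82) and high for granulocyte progenitor (0.86) and erythroid markers (0.78).

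Genes that work with the 10 factors differed in both directions. Among 15 partners in the same complexes, 11 had positive and 4 negative fold changes, with a median log2 fold change of 0.14, and edgeR called 0. The smallest p-values were those of Cbfa2t3, Tcf4 and Ssbp2. Cbfa2t3 encodes ETO2, a corepressor of the TAL1 complex, and was at 138, 136 and 130 CPM in vector and at 181, 163 and 166 CPM in labelled Hmga2. Every labelled library was higher, with a log2 fold change of 0.34 (SE 0.07). The tools divided on it: DESeq2 called it (adjusted p = 0.0314) and edgeR did not (adjusted p = 0.855). Tcf4, an E protein that pairs with TAL1 and LYL1, had a log2 fold change of 0.29 and Ssbp2, an LDB1-binding protein, one of 0.19. The groups overlapped for Tcf4 and were apart for Ssbp2.

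Paralogs of the 10 genes were measured in part: 15 of 17 passed the count filter, and Tal2 and Meis2 stayed under 0.2 CPM in every library. Of the 15, 9 had positive and 6 negative fold changes (median log2 0.13), and 0 were called by either tool. Higher without overlap were 4 of the 15, beside 5.28% of all genes. Elk3, an ETS-family gene, was at 62.2, 63.8 and 70 CPM in vector and at 84, 79 and 79.6 CPM in labelled Hmga2 (log2 fold change 0.31, SE 0.08, adjusted p = 0.855, edgeR). Gata3 was at 9.71, 3.61 and 7.33 CPM in vector and at 11.5, 12.9 and 12 CPM in labelled Hmga2, with a log2 fold change of 0.82 (SE 0.33), and was lowest in vector replicate 2 like Gata2. Runx2 had a log2 fold change of 0.25, close to that of Runx1, but its groups overlapped.

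Other transcription factor genes of stem cells, 14 in number, were positive in 10 and negative in 4 (median log2 0.14). Beside 5.28% of all genes, 2 of the 14 were higher without overlap. These were Ikzf2, which encodes Helios and had a log2 fold change of 0.51 (SE 0.14), and Hhex, a homeobox gene, at 0.21 with a SE of 0.09. Gfi1, which encodes a repressor active in granulocyte progenitors, went the other way at -0.38 with a SE of 0.27. Of 17 genes known to be regulated by heptad factors, 13 were positive and 4 negative (median log2 0.20). Only Hhex of these was higher without overlap, and Kit (0.28, SE 0.13) and Angpt1 (0.42, SE 0.23) had the next smallest p-values. In all 4 lists together edgeR called 0 genes and DESeq2 called Cbfa2t3 alone. As these genes share libraries and controls with the 10 members, the lists are set side by side as descriptions.

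**Figure D5:**
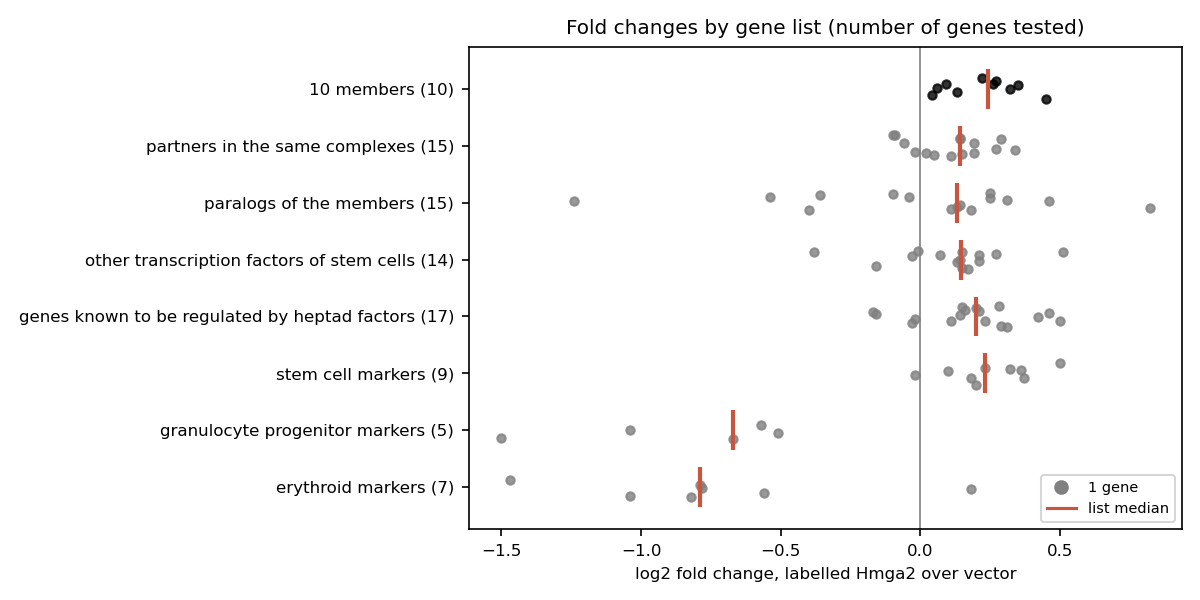
Log2 fold change, labelled Hmga2 over vector, of each tested gene (dots) in the 10 members, in 4 lists of related genes and in 3 marker lists, with each list's median as a red line and the number of genes tested in brackets; vertical scatter has no meaning. Medians are 0.24 for the members, 0.13 to 0.20 for the related lists, 0.23 for stem cell markers, and -0.67 and -0.79 for granulocyte progenitor and erythroid markers.

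Genes whose pattern over the 6 libraries was most like the heptad mean were sought among 10301 named genes of at least 5 CPM. Ccdc18 (Pearson r = 0.996), Stxbp4 (0.994), Diaph1 (0.985), Prx (0.984) and Fam109a (0.984) came first, each with the same order of libraries as the heptad mean (Spearman rho = 1.00). Stxbp4 moved most among them, at 35.6, 19.8 and 27.1 CPM in vector and 45.6, 50.7 and 39.5 CPM in labelled Hmga2. For Meis1 the most similar gene was Sigirr (r = 0.997), for Mecom it was Exoc6b (r = 0.997) and for Hlf it was Col4a1 (r = 0.994). Each was picked as the best of 10301 over only 6 libraries, which differ in total counts and in marker sums. These values describe the pick and were not tested.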

How the data were processed

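RNA from LSK cells of 6 mouse marrow samples was measured, 3 labelled vector and 3 labelled Hmga2, as grouped by the sample titles. The authors deposited expected counts, estimated per gene symbol and not normalized. Partek 3.0, Bowtie2 and the mm10 build are named in the submitters' processing notes, and no counter, annotation or strand setting is given in the sources used here. Such counts divide shared reads by a model, so antisense and overlapping genes are uncertain. Within a group no pair of libraries agreed within sampling noise (chi-square over its degrees of freedom 25.1 to 57.8).

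Counts were rounded and tested in edgeR 4.0.16 (R 4.3.3) with filterByExpr, TMM factors, a quasi-likelihood F test on group and Benjamini-Hochberg adjustment over all 16739 genes at a threshold of 0.05. CPM values are TMM-scaled, log2 CPM used a prior count of 2, and standard errors and 95% intervals come from the F statistic. Single genes also had an exact permutation test of CPM (scipy 1.17.1). DESeq2 1.42.0, other scaling, no count filter, a robust fit, a replicate block, terms for immunoglobulin-rich libraries and Y-linked genes, and leaving out each library were alternatives. Overlap counts under library totals and with each library left out were added after seeing the data. The edgeR step was checked on simulated counts. Lengths and positions come from GENCODE M21, which gave a length for 97.1% of genes tested, and promoter windows from RefSeq (GRCm38.p6). Protein sequences were not analysed here.

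The 10 members, gene lists and tests were chosen with earlier results of these data known. Named genes were the 10 members, Hmga2, up to 3 genes per list with the smallest p-values, and the genes most like the heptad mean (5) and most like Meis1, Mecom and Hlf (1 each). Nfix, 1700006J14Rik, Gm37818, Gm16140, Prdm16, Mycn and the marker genes fall outside this rule and were named after their values were seen. Some genes of the lists are not reported here.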

Additional observations from a re-analysis of the deposited data

How the results depend on the processing

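Each of the 10 genes was refitted under 15 alternatives. Of these 150 fits, 144 kept their direction, 6 reversed and 0 passed the threshold. The reversals were Tal1 at -0.05 without vector replicate 3 and -0.04 without labelled Hmga2 replicate 2, Lyl1 at -0.02 without vector replicate 1, Mecom at -0.03 without vector replicate 2, and Hlf at -0.08 without vector replicate 2 and -0.10 without labelled Hmga2 replicate 2; the cause was not tested. Leaving out single libraries took the log2 fold change of Tal1 up to 0.12, of Lyl1 to 0.15, of Mecom to 1.21 and of Hlf to 0.52. It moved the median log2 fold change of the 10 genes between 0.10 and 0.34, the number with positive fold changes between 8 and 10, and the number without overlap between 4 and 6, while the share of all genes without overlap in that direction lay between 8.06% and 14.9%, against 5.28% with 6 libraries. With terms for Y-linked genes or immunoglobulin-rich libraries the median was 0.32. Over all genes, 1 was called without the count filter and 71 by DESeq2, against 0 otherwise. Same-numbered libraries did not deviate together (correlations -0.205, -0.499 and -0.263), so numbers were not treated as pairs; with the replicate block 0 genes were called, 719 had an unadjusted p under 0.05, and the median stayed at 0.24. Mecom was at 0.65 with that block and 0.74 with the immunoglobulin term, against 0.35. The lowest value of the 10 genes, that of Mecom in vector replicate 2, rests on 208 reads.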

Other observations

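Prdm16, the paralog of Mecom, was highest in the library where Mecom was lowest. It was at 12.8, 33.4 and 1.8 CPM in vector replicates 1, 2 and 3 and at 3.59, 5.85 and 10.9 CPM in labelled Hmga2, against 37.6, 8 and 13.9 CPM and 22.2, 21.8 and 31.8 CPM for Mecom. Its log2 fold change was -1.24 (SE 0.89). In labelled Hmga2 both genes were highest in replicate 3. No relation between the pair was tested.

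Mycn, a stem cell transcription factor gene outside the 10, had the library order of Mecom in vector and nearly so in labelled Hmga2, at 119, 27.9 and 32.4 CPM and at 50.8, 58.1 and 108 CPM. Mycn was picked after its values were seen and is given as values alone.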
